A study of Drosophila melanogaster with 12 samples.

Results

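Fat body RNA was compared between larvae reared on 0.3 M glucose (control glucose diet, CGD) and larvae reared on 0.3 M fructose (control fructose diet, CFD). The comparison used the 3 CGD and the 3 CFD libraries, 6 of the 12 libraries in the series, chosen by the diet on their labels. Of 9500 genes listed, 9499 had a mean value of at least 1 over these 6 libraries and were tested. The other 6 libraries came from larvae fed either sugar at 1.7 M, 3 on the high fructose diet (HFD) and 3 on the high glucose diet (HGD).

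All larvae were females at the wandering stage of the last instar, raised at 25 °C from w1118 fathers (a Vienna stock) and UAS-Dcr2; r4-GAL4 mothers. Every library therefore carries a Dicer-2 transgene driven by r4-GAL4, a driver that is active in the larval fat body. The growth notes of the labels also mention double-stranded RNA against the insulin receptor gene, but the cross they name holds no such transgene. Fat bodies were freed by shearing or dissection and collected by centrifugation, and their purity was checked under the microscope. The replicates were biological, and the labels name no preparation or sequencing batch.

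The larval fat body does the work of liver and adipose tissue in the fly. It takes up dietary sugar, stores glycogen and triglyceride, releases trehalose into the hemolymph, and secretes storage proteins and lipoproteins. Glucose and fructose are both phosphorylated by hexokinases before they enter glycolysis. The polyol pathway links them directly, since aldose reductase reduces glucose to sorbitol and sorbitol dehydrogenase oxidizes sorbitol to fructose. The comparison asks whether the kind of sugar changes fat body transcripts when the amount is that of an ordinary diet.

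Between 8555735 and 9736581 reads in listed genes were recovered for the CFD libraries, and between 8858117 and 9496778 for CGD. The median gene had 110 to 128.5 reads in the CFD libraries, 132 and 138 in CGD replicates 1 and 2, and 98 in CGD replicate 3, the lowest of the 6. The 4 larval serum protein genes, Lsp1alpha, Lsp1beta, Lsp1gamma and Lsp2, which encode the storage proteins that mark this tissue, took 25.2% of these reads in CGD replicate 3 and at most 18.5% in the other 5 libraries. Dcr-2, the gene of the transgene, took 0.468% to 0.578%. CGD replicate 3 held the highest of the 6 values for 26.1% of all genes and the lowest for 22.5%. CFD replicate 3 held the lowest for 21.4%. These libraries lay at opposite ends of the first principal component, CGD replicate 3 at -33.71 and CFD replicate 3 at 29.39. The remaining libraries lay between -13.19 and 12.77. That component carried 35.8% of the variance and did not separate the diets. Across genes, which are not independent replicates, CFD replicate 1 correlated more closely with CGD replicate 2 (0.983) than with CFD replicate 2 (0.9749) or CFD replicate 3 (0.968).

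No gene differed between CGD and CFD at an adjusted p of 0.05 (limma with Benjamini-Hochberg adjustment over 9499 genes, smallest adjusted p 0.997), which is 0.0% of those tested. At an unadjusted p under 0.05 there were 359 genes, 3.78% of all, with 158 (1.66%) higher and 201 (2.12%) lower on CGD. Where the glucose values were scaled by the factor from all 12 libraries, 133 of 394 such genes were higher. limma-voom on the recovered reads also called 0 genes and had 441 at an unadjusted p under 0.05. The number at an unadjusted p under 0.05 was 990 without CFD replicate 1, 220 without CFD replicate 2 and 195 without CFD replicate 3, and no gene passed the adjusted threshold in any of these fits (smallest adjusted p 0.0975, without CFD replicate 1).

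The differences were small for most genes. The median size of the log2 difference was 0.149, and 105 genes (1.11%) differed by more than 1 on the log2 scale. The 95% interval of a difference reached 0.472 to either side of its estimate on the log2 scale in the median gene. These intervals rest on the spread within all 4 diets, not within CFD and CGD alone. The median standard deviation of log2 values between replicates was 0.219 on CFD and 0.22 on CGD. In 446 genes (4.70%) all 3 CGD libraries were above all 3 CFD libraries, and in 368 genes (3.87%) all 3 were below, together 814 genes (8.57%). With the factor from all 12 libraries, 329 of 808 such genes were higher on CGD.

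**Figure D1:**
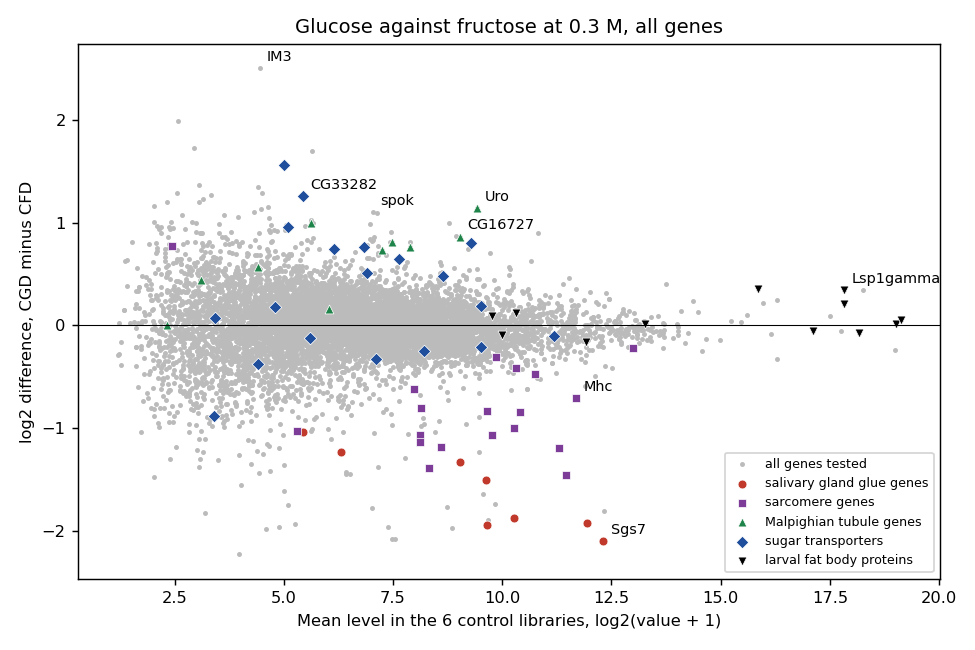
The log2 difference CGD minus CFD of every gene tested (vertical axis) is plotted against its mean level in the 6 control libraries, as log2 of the normalized value plus 1 (horizontal axis), with 5 gene lists in colour. The 8 glue genes and 18 of 19 sarcomere genes lie below 0, 9 of 10 Malpighian tubule genes lie above 0, and the fat body proteins lie near 0 at the right; 0 genes passed the adjusted threshold.

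The largest negative differences included glue and sarcomere genes, which are known from other larval organs. Glue genes encode the salivary secretion with which the larva fixes itself at pupariation, and they are switched on in the salivary gland late in the last instar. All 8 measured glue genes had a lower mean on CGD, 5 of them without overlap between the diets (background 3.87%), and their median log2 difference was -1.69 against 0.00 over all genes. The list was chosen with earlier results of these data known, so its counts are a description only. No glue gene passed the adjusted threshold, and 7 were lower at an unadjusted p under 0.05 (2.12% of all genes). In bulk tissue, fewer cells of a type and less RNA per cell cannot be told apart.

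Sgs7, a small secreted glue protein, had values of 7063, 14404 and 3506 on CFD and 2851, 1969 and 801 on CGD (replicates 1 to 3). Values are those adjusted by the authors toward a common library size, with the glucose libraries then divided by 1.117. All CGD values were below all CFD values, with a peak in CFD replicate 2. The log2 difference was -2.10 with a 95% interval of 1.09 to either side (adjusted p 0.997, limma). Sgs8, its neighbour and close relative, followed the same order, with 4434, 10787 and 3184 on CFD and 2807, 1745 and 574 on CGD. Sgs7 and Sgs8 lie 466 bases apart on chromosome arm 3L (BDGP6.54 annotation, Sgs7 from 11509861 to 11510247), and reads from their similar coding parts may be shared between them. Sgs3, the mucin-like glue protein 1973 bases from Sgs7, had 613, 1568 and 1352 on CFD and 583, 387 and 252 on CGD, and CGD replicate 1 came close to CFD replicate 1. Its log2 difference was -1.50 (95% interval ± 0.76).

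Eig71Ee, an ecdysone-induced gene of the salivary gland and other tissues, had 954, 3669 and 1214 on CFD and 714, 624 and 192 on CGD. Sgs1, another glue protein, was much rarer, at 61.2, 193 and 87.0 on CFD and 47.1, 38.0 and 42.9 on CGD. For Sgs4 and Sgs5 the log2 differences were -1.33 and -1.95, and the diets overlapped. ng3 had a mean difference of -1.04 that was 0.03 without CFD replicate 2. The 8 glue genes together took 0.194%, 0.463% and 0.152% of the reads on CFD and 0.123%, 0.0836% and 0.023% on CGD. The shares were thus low in every library, highest in CFD replicate 2 and lowest in CGD replicate 3. Without CFD replicate 2 the median log2 difference of the list was -1.26, and without CGD replicate 3 it was -1.25.

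Among the 15 largest negative differences of genes with a mean of at least 50 and no overlap were 5 glue-list genes, and 5 more are described here by their neighbours. CG15404 had 506, 1317 and 384 on CFD and 286, 158 and 92.1 on CGD. CG31698, only 131 bases away on arm 2L, had 717, 1899 and 748 on CFD and 644, 342 and 153 on CGD. CG34279 and CG42798 lie 3389 bases apart on arm 3R, with log2 differences of -1.29 and -1.45. CG7606, on the same arm, had 778, 2398 and 740 on CFD and 493, 374 and 146 on CGD. In 12 of the 15 genes the highest library was CFD replicate 2, and in 14 the lowest was CGD replicate 3. Among all 232 genes that met the same rule apart from size, where the highest library is always a CFD one and the lowest a CGD one, these shares were 36.6% and 42.7%. The 15 differences ran from -2.10 to -0.71, and CG5656, just outside, had -0.69.

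Muscle genes formed the other large group. The sarcomere list covers the myosin, actin, tropomyosin and troponin proteins of the contractile apparatus. It too was chosen with earlier results of these data known. Of 19 measured genes, 18 had a lower mean on CGD, 4 without overlap (background 3.87%), and the median log2 difference was -0.84. At an unadjusted p under 0.05, 16 were lower (2.12% of all genes), and none passed the adjusted threshold. Act57B, a larval muscle actin, had 2101, 5040 and 5244 on CFD and 1244, 2256 and 950 on CGD, so CFD replicate 1 lay below the highest CGD library. Mhc, the muscle myosin heavy chain, had 3752, 4009 and 4390 on CFD and 2128, 3379 and 2116 on CGD, without overlap. Its log2 difference was -0.71 (95% interval ± 0.59).

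The order of libraries in the sarcomere list was not that of the glue genes. For wupA, which encodes troponin I, CFD replicates 2 and 3 were the high libraries, at 576 and 609, while CFD replicate 1 had 226 and the CGD libraries had 187, 221 and 107. Mlc2, myosin light chain 2, had 1808, 4317 and 4393 on CFD and 1496, 2150 and 883 on CGD. There, and in the paramyosin gene Prm, CFD replicate 1 lay inside the CGD range. Unc-89, the obscurin-type titin relative, had 108, 128 and 119 on CFD and 58.5, 81.1 and 55.7 on CGD. The exception in the list was Act79B, an actin with values of at most 7.73 in the control libraries, at a log2 difference of 0.78 and overlapping diets. Without CGD replicate 3 the median of the list was -0.62, and without CFD replicate 3 it was -0.66, with 10 genes at an unadjusted p under 0.05 in either fit. Over all 9499 genes, 349 and 195 were at that threshold in these fits, in the same order. Without CFD replicate 1 the median was -1.13 and 18 genes were lower without overlap, against 16.4% of all genes in that fit.

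**Figure D2:**
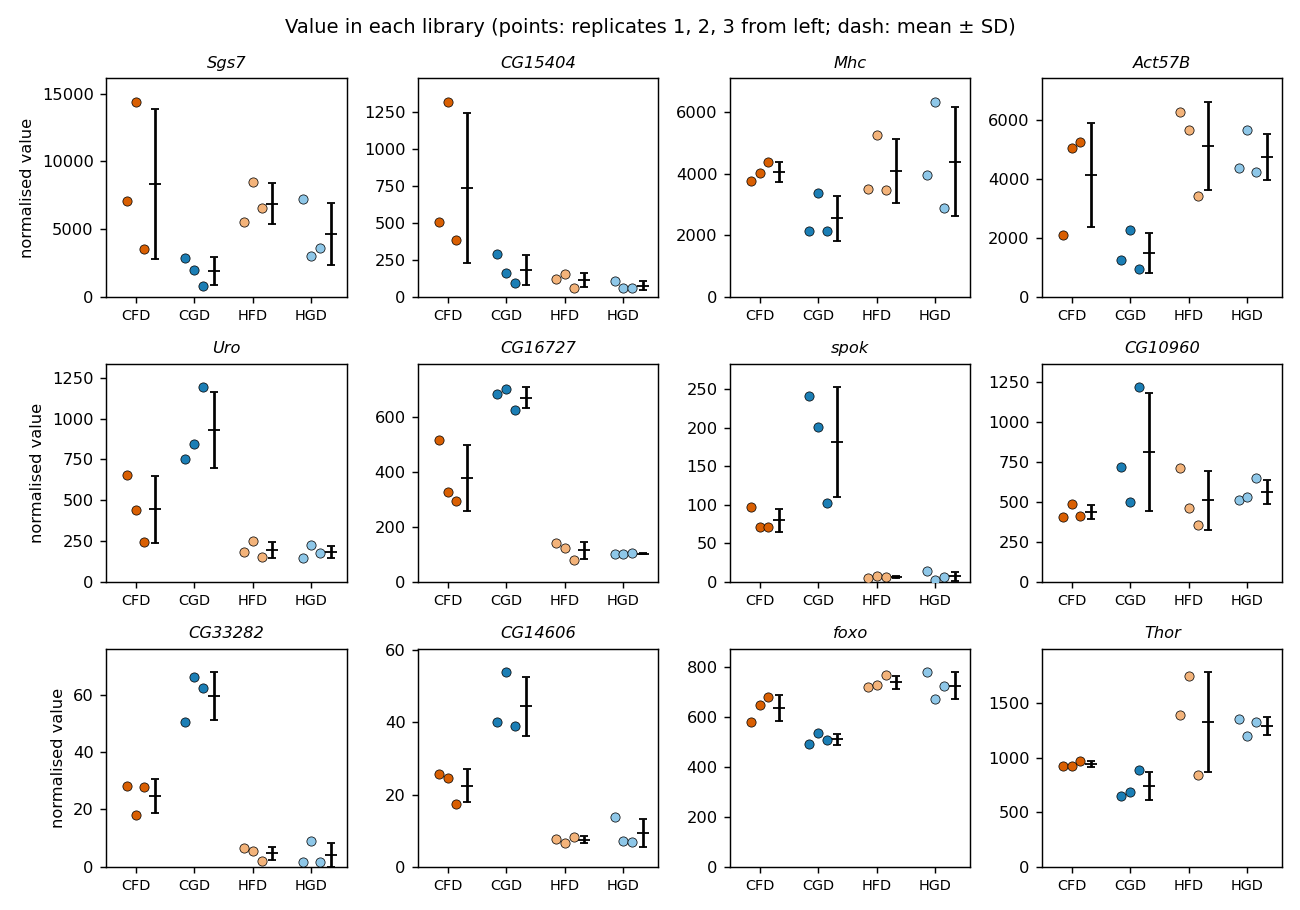
Normalized values of 12 genes (vertical axes, each from 0) in every library of the 4 diets, with points for replicates 1 to 3 and a dash with bars for the mean ± SD of 3 libraries. Sgs7, CG15404 and Mhc are lower in all 3 CGD libraries than in all 3 CFD libraries, Act57B overlaps, and Uro, CG16727, spok, CG10960, CG33282 and CG14606 are higher in all 3 CGD libraries; foxo and Thor are lower.

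Several genes of the Malpighian tubule, the excretory organ of the fly, had higher means on CGD. A list of 10 such genes was drawn up after values had been seen, so its counts are a description only. Of the 10, 9 had a higher mean on CGD, 6 without overlap (background 4.70%), and the median log2 difference was 0.75. Uro, urate oxidase, which the larval tubule uses to break down urate, had 652, 443 and 242 on CFD and 751, 844 and 1195 on CGD, with a log2 difference of 1.14 (95% interval ± 0.66). CG16727 had 515, 325 and 294 on CFD and 684, 700 and 625 on CGD, and the CGD libraries were close to each other. CG17751 and CG17752 are its neighbours on arm 3R, with 902 bases between them and 943 bases from CG17752 to CG16727, and had log2 differences of 0.82 and 0.76. All 3 were without overlap, and CFD replicate 3 was the lowest library in each.

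NaPi-T, a phosphate cotransporter, had 140, 122 and 80.5 on CFD and 170, 189 and 199 on CGD. Oatp58Dc, an organic anion transporter of the tubule, had 31.7, 45.8 and 19.7 on CFD and 59.3, 48.9 and 82.7 on CGD. Other genes of this list overlapped between the diets. The inward rectifier channel gene Irk3 had a log2 difference of 0.56, the water channel gene Drip 0.16, and Esp 0.00. A mixed list of 10 trachea and tubule markers, which holds Uro and Irk3 too, had a lower mean on CGD in 7 genes and a median of -0.23, with Uro as its only member without overlap. The summed value of the 10 Malpighian tubule genes was 895 to 1790 on CFD and 2260 to 2701 on CGD. That of the mixed list was 1738 to 1933 on CFD and 1987 to 2144 on CGD. Without CFD replicate 3, the lowest library, the median of the Malpighian tubule list was 0.49 and 4 genes had an unadjusted p under 0.05 in place of 6. Over all 9499 genes, 75 were higher at that threshold in that fit, and 158 in the main fit.

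The gene spok, which acts in ecdysone synthesis in the ring gland, had 97.2, 70.7 and 71.1 on CFD and 241, 201 and 102 on CGD. All CGD values were above all CFD values, the closest being CGD replicate 3 and CFD replicate 1, and the log2 difference was 1.103 (95% interval ± 1.01). The other measured genes of ecdysone synthesis overlapped. They were phm, with a log2 difference of 0.52, sad with 0.39, and shd with 0.12, while sro had -0.17. Of the 5 genes measured, 1 was higher without overlap (background 4.70%), and the median of 0.39 was 0.11 without CFD replicate 1.

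Most markers of further organs overlapped. Among 10 neuron markers, 1 was higher and 1 lower on CGD without overlap, and 9 had a lower mean. Among 11 imaginal disc markers, 1 was higher without overlap, and 8 had a higher mean. Over all genes 4.70% were higher and 3.87% lower without overlap. Of 30 midgut genes, 27 had a lower mean on CGD with a median log2 difference of -0.40, and Jon66Cii, a serine protease gene, was without overlap. The midgut median was -0.21 without CFD replicate 1, with 19 genes lower, and -0.63 without CFD replicate 3. LysB, a digestive lysozyme, had 401, 151 and 85.3 on CFD and 44.9, 119 and 53.8 on CGD, so CFD replicate 1 was the high library. All 12 hemocyte markers had a higher mean on CGD with a median of 0.25, and none was without overlap. Without CFD replicate 3 that median was 0.14, with 9 genes higher. eater, a phagocytic receptor of hemocytes, had 157, 68.9 and 49.7 on CFD and 138, 130 and 296 on CGD. He, a hemocyte surface protein, had its highest value on CFD, 271 in replicate 1. Cuticle genes had a median of -0.10, which was 0.01 without CGD replicate 3, with 2 of 25 lower without overlap (3.87% of all genes). Lcp2, a larval cuticle protein, was among the 15 largest negative differences at 149, 190 and 188 on CFD and 99.2, 116 and 51.0 on CGD.

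The tanning enzymes varied widely between the libraries of either diet. ple, the tyrosine hydroxylase that makes DOPA, had 284, 1817 and 2002 on CFD and 430, 870 and 73.7 on CGD. The ebony gene (e), whose product conjugates dopamine with beta-alanine, followed the same order. In both, CFD replicates 2 and 3 were the high libraries and CGD replicate 3 the low one. The log2 differences were -1.74 and -1.77, and -0.72 and -0.95 without CGD replicate 3. The list of 8 enzymes was also drawn up after values had been seen. Its median was -0.45, with 2 genes lower at an unadjusted p under 0.05 (2.12% of all genes) and no member free of overlap.

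**Figure D3:**
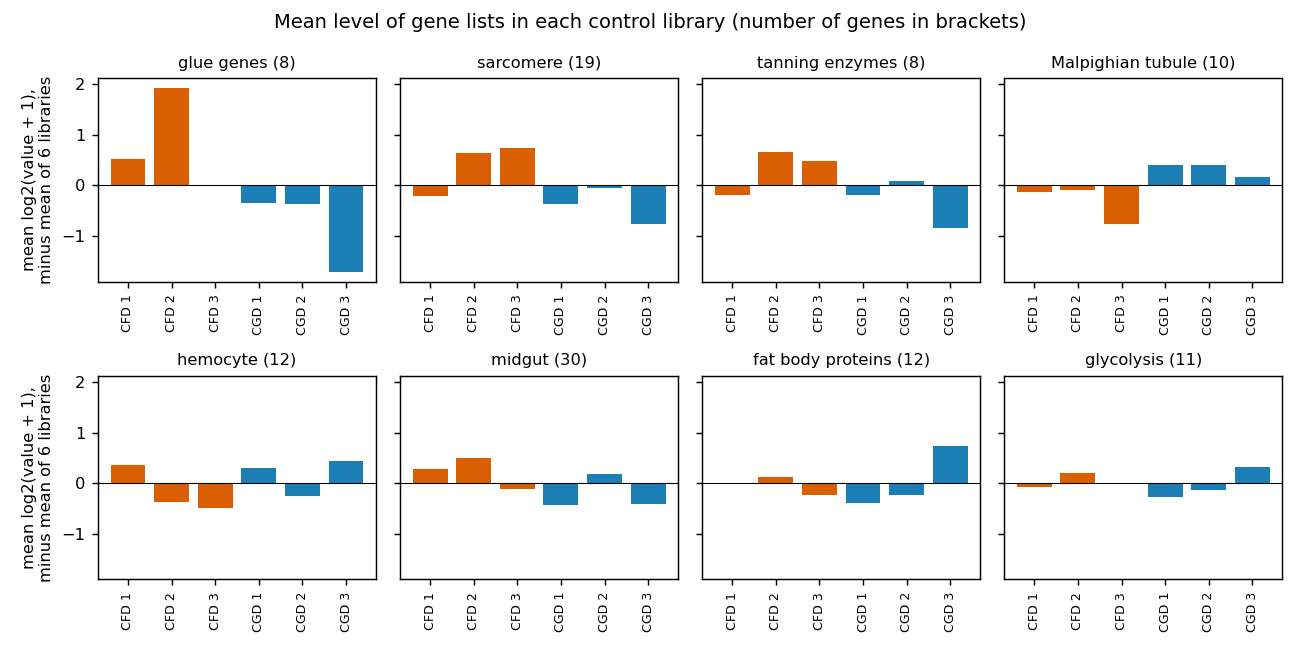
Mean log2(value + 1) of 8 gene lists in each control library, less the mean of the 6 libraries (vertical axis, bars per library, orange for CFD and blue for CGD, number of genes in brackets). The glue list is highest in CFD replicate 2, the sarcomere and tanning lists in CFD replicates 2 and 3, the tubule list is above its mean in all 3 CGD libraries, and the fat body proteins and glycolysis lists are highest in CGD replicate 3.

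The genes that define the fat body overlapped between the diets. The 12 proteins of the list had a median log2 difference of 0.03 and none was without overlap. Lsp2 had 543310, 575800 and 532690 on CFD and 479550, 456510 and 842700 on CGD, so CGD replicates 1 and 2 were below and replicate 3 was above every CFD library. Lsp1gamma, another storage protein subunit, had a log2 difference of 0.34, and -0.19 without CGD replicate 3. For Rfabg, the apolipophorin precursor that carries lipid in the hemolymph, the values were 0.35 and -0.04. Without CGD replicate 3, all 12 genes had a lower mean on CGD, 6 of them without overlap (12.8% of all genes in that fit), with a median of -0.27. The marker levels of other organs move between the same libraries, and their part in any difference was not tested.

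The enzymes that bring sugar into metabolism overlapped between glucose and fructose. Of 14 enzymes of sugar entry and the polyol pathway, 7 had a higher and 7 a lower mean on CGD, none was without overlap, and the median log2 difference was 0.00, or -0.14 without CGD replicate 3. Hex-A, a hexokinase, had 232, 270 and 262 on CFD and 234, 229 and 234 on CGD. Its log2 difference was -0.13 (95% interval ± 0.32). CG6084, an aldo-keto reductase of the aldose reductase type, had 321, 376 and 242 on CFD and 311, 367 and 614 on CGD, so only CGD replicate 3 lay outside the CFD range. The difference of 0.42 (± 0.63) was 0.14 without that library. Sodh-1, sorbitol dehydrogenase, had 599, 807 and 506 on CFD and 524, 597 and 1255 on CGD, a difference of 0.23 (± 0.77). For Sodh-2, its paralogue, the difference was -0.04 (± 0.55). For Pgi, which interconverts glucose 6-phosphate and fructose 6-phosphate, it was 0.12 (± 0.67). Each of these intervals covers 0.

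Several sugar transporters of the SLC2 family had higher values in every CGD library than in every CFD library. Of 19 measured, 12 had a higher mean on CGD, and 5 of those were without overlap (background 4.70%), while 0 were lower without overlap. The median log2 difference was 0.19, and it was 0.06 without CFD replicate 3 and 0.49 without CGD replicate 1. At an unadjusted p under 0.05, 6 were higher (1.66% of all genes) and 1 was lower (2.12%), and none passed the adjusted threshold.

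CG33282 had 28.3, 17.9 and 27.8 on CFD and 50.4, 66.3 and 62.4 on CGD. The log2 difference was 1.26 (95% interval ± 1.02), and it stayed between 1.05 and 1.37 when any 1 control library was left out. CG15408, 3021 bases away on arm 2L, had 105, 80.8 and 65.9 on CFD and 158, 140 and 127 on CGD. Its difference of 0.77 (± 0.48) was among the 15 largest positive ones. CG33281, CG3285 and CG15406 lie in the same stretch of 2L and had differences of 0.74, 0.51 and 0.48, and of these CG3285 was without overlap between the diets. CG3285 and CG15408 overlap each other in the BDGP6.54 annotation, so their reads are uncertain.

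Elsewhere in the family, CG14606 had 25.7, 24.5 and 17.3 on CFD and 40.2, 53.9 and 39.1 on CGD, a log2 difference of 0.96 (± 0.62). CG10960 had 405, 486 and 414 on CFD and 716, 499 and 1219 on CGD. CGD replicate 2 was close to CFD replicate 2 there, and without CGD replicate 3 the difference of 0.80 was 0.46. CG1208 had the largest mean difference, 1.56, but it rested on CGD replicate 1, at 108, against 14.2 and 29.5 in the other CGD libraries. The most abundant member was Tret1-1, the trehalose transporter through which the fat body exports its sugar. It had 2509, 2422 and 2256 on CFD and 2137, 1824 and 2818 on CGD, a difference of -0.11 (± 0.36). Glut1 had a difference of -0.25 (± 0.41).

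**Figure D4:**
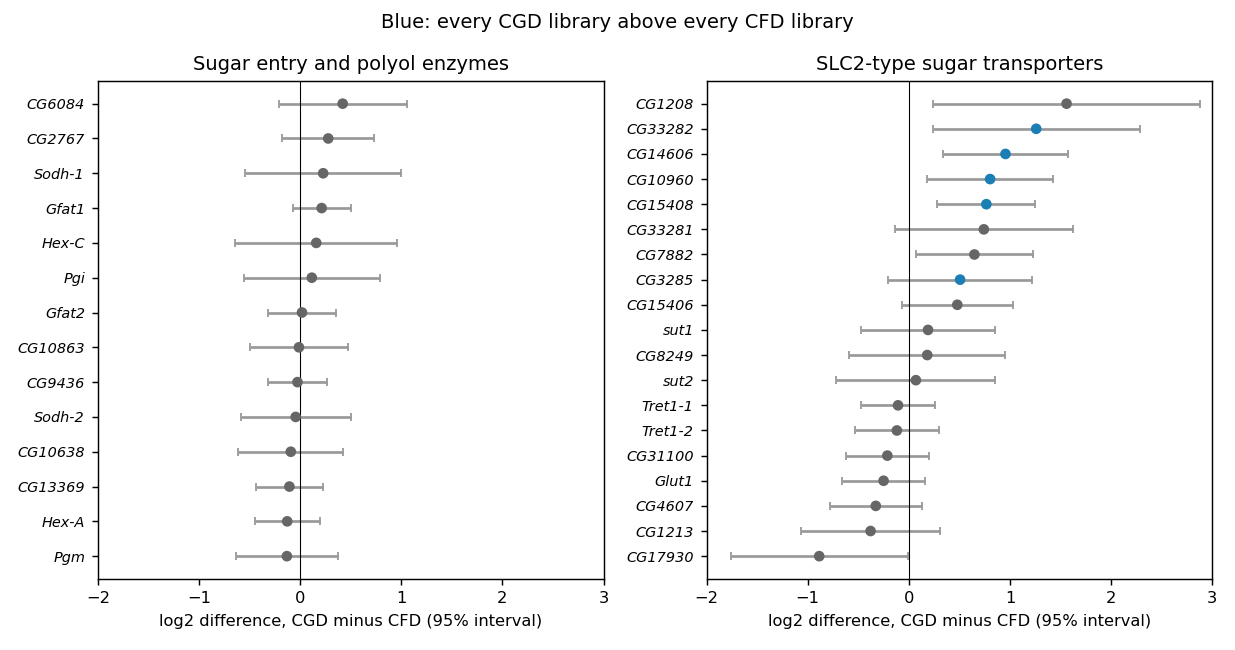
The log2 difference CGD minus CFD (horizontal axis, with 95% intervals) of 14 sugar entry and polyol enzymes (left) and 19 SLC2-type sugar transporters (right), one gene per line. All intervals of the enzymes cross 0; 5 transporters, in blue, were higher in every CGD library than in every CFD library, and none passed the adjusted threshold.

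The lists of central metabolism had medians near 0. Of 11 glycolysis genes, 9 had a lower mean on CGD with a median log2 difference of -0.08, and the median was -0.26 without CGD replicate 3 and 0.03 without CGD replicate 1. Gapdh2, the glycolytic dehydrogenase, had 3030, 3115 and 2436 on CFD and 2676, 2840 and 4474 on CGD. The gluconeogenesis list had a median of 0.09, the pentose phosphate list 0.15, fatty acid and triglyceride synthesis 0.12, fatty acid oxidation 0.04 and the TCA cycle -0.02. Without CGD replicate 3, which was high in these lists, the 5 medians were -0.26, -0.12, -0.15, -0.11 and -0.12 in the same order. Of these 5 lists, members without overlap were CG4860, an acyl-CoA dehydrogenase, and CG6439, an isocitrate dehydrogenase, both lower on CGD. Over all genes 3.87% were lower without overlap. desat1, the fatty acid desaturase, had 2434, 2763 and 1547 on CFD and 2046, 2425 and 4898 on CGD. Its log2 difference of 0.41 was 0.03 without CGD replicate 3. Pepck, the gate of gluconeogenesis, had a difference of 0.09 (95% interval ± 0.47).

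In the trehalose and glycogen list, CG5177, annotated as a trehalose phosphatase, had 119, 210 and 268 on CFD and 138, 95.7 and 86.0 on CGD. Its log2 difference was -0.85 (95% interval ± 0.54), with CFD replicate 1 inside the CGD range. Its neighbour CG5171 had -0.73 (± 0.91). GlyP, glycogen phosphorylase, had -0.42 (± 0.49). The 14 mitochondrially encoded genes had a median of 0.28 and none was without overlap. Their median was -0.09 without CFD replicate 3, with 11 genes lower, and 0.63 without CFD replicate 1. The reads of mt:lrRNA took from 2.75% to 5.73% of a library.

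In the insulin pathway, foxo and Thor were lower in every CGD library than in every CFD library. In flies, FOXO is held out of the nucleus by insulin signalling and activates Thor, the translational repressor 4E-BP. foxo had 579, 649 and 680 on CFD and 492, 535 and 506 on CGD, without overlap. The log2 difference was -0.31 (95% interval ± 0.26, adjusted p 0.997 by limma). Thor had 920, 928 and 970 on CFD and 650, 688 and 889 on CGD, also without overlap, with a difference of -0.35 (± 0.46). InR, the insulin receptor and another FOXO target, had 261, 374 and 406 on CFD and 315, 324 and 254.6 on CGD, with overlap and a difference of -0.20 (± 0.38). Of 24 genes of the insulin and TOR list, 17 had a lower mean, 2 without overlap, and the median was -0.08. The 2 genes without overlap compare with 3.87% of all genes. Without CFD replicate 1 the median was -0.18 and 10 genes were lower without overlap, against 16.4% of all genes, and without CFD replicate 3 the median was -0.02 with 12 genes lower.

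Among 10 transcription factors that sense sugars and sterols, 8 had a lower mean on CGD, with a median of -0.10 that was -0.23 without CGD replicate 3. The exceptions were Mio, the fly counterpart of the carbohydrate response factor ChREBP, at 0.03 (± 0.39), and Hr38, a nuclear receptor with values of at most 5.23 in the control libraries. The partner of Mio, bigmax, had -0.19 (± 0.39), and sug, a zinc finger gene that responds to sugar through both, -0.14 (± 0.52). The only member without overlap was ERR, the estrogen-related receptor that drives glycolytic genes in larvae (background 3.87%). It had 126, 114 and 122 on CFD and 108, 113 and 108 on CGD.

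The ecdysone receptor and response list had a lower mean on CGD in 16 of 20 genes, with a median log2 difference of -0.21. It had 1 gene without overlap, ImpL1, which was rare and higher on CGD (background 4.70%). Without CFD replicate 1 the median was -0.39 and 10 genes were lower without overlap (16.4% of all genes in that fit). br, the broad transcription factor of the larval to pupal transition, had 3582, 5605 and 6689 on CFD and 4034, 3960 and 3025 on CGD. Eip78C, a nuclear receptor induced by ecdysone, had 349, 441 and 570 on CFD and 292, 436 and 197 on CGD. In both, CFD replicate 1 lay inside the CGD range. In the juvenile hormone list, gce, a receptor of the hormone, had 274, 318 and 305 on CFD and 218, 248 and 236 on CGD, without overlap. The difference of -0.35 (± 0.26) stayed between -0.41 and -0.30 when any 1 control library was left out. The esterase gene Jhe and its relative Jhedup were higher without overlap. In this list of 10 genes, 2 were thus higher and 1 lower without overlap. Over all genes these shares were 4.70% and 3.87%. Jhedup had 8.89, 8.52 and 3.87 on CFD and 22.4, 11.5 and 13.7 on CGD. Of 8 clock genes, tim, the light-sensitive clock component, was higher without overlap (background 4.70%). It had 20.4, 15.1 and 17.7 on CFD and 22.3, 30.5 and 47.5 on CGD.

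Immune genes varied between single libraries. IM3, a Bomanin peptide of the Toll response, had the largest positive difference of the lists, 2.50 on the log2 scale, from values of 4.38, 8.85 and 1.01 on CFD and 73.3, 7.33 and 30.3 on CGD. CGD replicate 2 lay inside the CFD range, and without CGD replicate 1 the difference was 1.77. IM1, a related peptide, had 33.7 in CGD replicate 1 and at most 4.10 in the other control libraries. Of 10 antimicrobial peptide genes, 6 had a lower mean on CGD and the median was -0.16, which was 0.02 without CFD replicate 1 and also without CGD replicate 2. DptB, a diptericin, was lower without overlap (background 3.87%). Drs, drosomycin, had 748, 302 and 586 on CFD and 1330, 457 and 685 on CGD. pirk, a negative regulator of the Imd pathway, had 25.4, 35.4 and 28.9 on CFD and 22.3, 18.1 and 10.9 on CGD, without overlap. Tl, the Toll receptor, had a difference of 0.49 (95% interval ± 0.39) with overlap.

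Translation and growth genes had small differences. Of 71 mitochondrial ribosomal proteins, 53 had a higher mean on CGD, 6 without overlap, and 2 were lower without overlap, with a median of 0.11. The shares without overlap over all genes were 4.70% higher and 3.87% lower. The median was 0.02 without CFD replicate 3, with 43 genes higher, and 0.24 without CFD replicate 1. The cytosolic ribosomal proteins had a median of -0.04, with 64 of 86 lower, and without CGD replicate 2 the median was 0.02, with 32 lower. Of 16 ribosome biogenesis factors, 12 were higher in mean and 3 were without overlap, with a median of 0.18 that was 0.08 without CFD replicate 2. Among these were RpI1, a large subunit of RNA polymerase I, with 112, 117 and 138 on CFD and 149, 172 and 152 on CGD, and ns1, a nucleolar GTPase, with a difference of 0.40 (95% interval ± 0.41). Of 27 DNA replication genes, 19 were higher in mean, 4 without overlap and 1 lower without overlap. CaBP1, a protein disulfide isomerase of the endoplasmic reticulum, was the only member of the unfolded protein response list without overlap, at 600, 566 and 451 on CFD and 687, 651 and 697 on CGD.

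Several of the largest positive differences belonged to none of these groups. The 15 ran from 0.74 to 1.14, and NaPi-T, just outside, had 0.73. CG10006 had 117, 95.4 and 66.4 on CFD and 179, 182 and 128 on CGD. CG34426 had 134, 93.2 and 40.3 on CFD and 147, 165 and 166 on CGD, and CG15155 had a difference of 0.91. Cyp6a8, a cytochrome P450, had 168, 149 and 70.1 on CFD and 173, 206 and 272 on CGD. In 12 of the 15 genes the lowest library was CFD replicate 3, which was so in 42.7% of the 260 genes that met the same rule apart from size, where the lowest is always a CFD library. Without CFD replicate 3 the differences of CG34426, CG15155 and Cyp6a8 were 0.50, 0.49 and 0.43.

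The same contrast at 1.7 M, from libraries that took no part in the choice of these genes, gave different values for the genes higher on CGD and for those lower. Of the 15 genes with the largest negative differences at 0.3 M, 13 were also lower on HGD than on HFD, with a median log2 difference of -0.32 in place of -1.45. Over all genes 42.1% were lower there. Lcp2 had the largest of these, -0.91, from 249, 311 and 270 on HFD and 128, 137 and 178 on HGD. Sgs7 had 5493, 8498 and 6576 on HFD and 7252, 3033 and 3618 on HGD, a difference of -0.65 (SE 0.51). Of the 15 genes with the largest positive differences, 4 were also higher on HGD, compared with 57.9% of all genes, and their median was -0.10 in place of 0.81. These genes share their libraries, and several are neighbours or members of 1 tissue's set. They were chosen for the largest differences at 0.3 M, so smaller medians in other libraries would follow from that choice alone. The medians therefore do not measure a change with concentration. The shares over all genes depend on the scaling, since HGD values were divided by the factor from the control diets. With it, the median log2 difference of all genes at 1.7 M was 0.05.

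Uro had 182, 250 and 153 on HFD and 148, 223 and 175 on HGD. Its log2 difference there was -0.09. CG33282 was at 6.60 or less on HFD and at 9.01 or less on HGD. spok had at most 13.3 in any high sugar library against at least 70.7 in the control libraries. For phm these values were 23.5 and 94.7. sad went the other way, with at least 2569 in the high sugar libraries and at most 372 in the control libraries. The summed value of the 5 ecdysone synthesis genes was 1184 to 1722 in the control libraries and 3844 to 5486 in the high sugar libraries. foxo did not separate the sugars at 1.7 M, with 720, 726 and 769 on HFD and 780, 671 and 724 on HGD. The sarcomere list had a median of -0.10 at 1.7 M, the tubule list 0.00 and the glue list -0.32. No gene passed the adjusted threshold between the high sugar diets (537 at an unadjusted p under 0.05), and none passed it for a change of the glucose to fructose difference with concentration (406 at an unadjusted p under 0.05, smallest adjusted p 0.936, limma). The 95% interval of that change reached 0.667 to either side in the median gene. The smallest p of that last test belonged to Dll, a homeobox gene of limb primordia, with 80.1, 86.3 and 86.3 on CFD, 103, 105 and 99.5 on CGD, 61.3, 66.2 and 79.3 on HFD and 43.3, 37.9 and 45.6 on HGD.

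**Figure D5:**
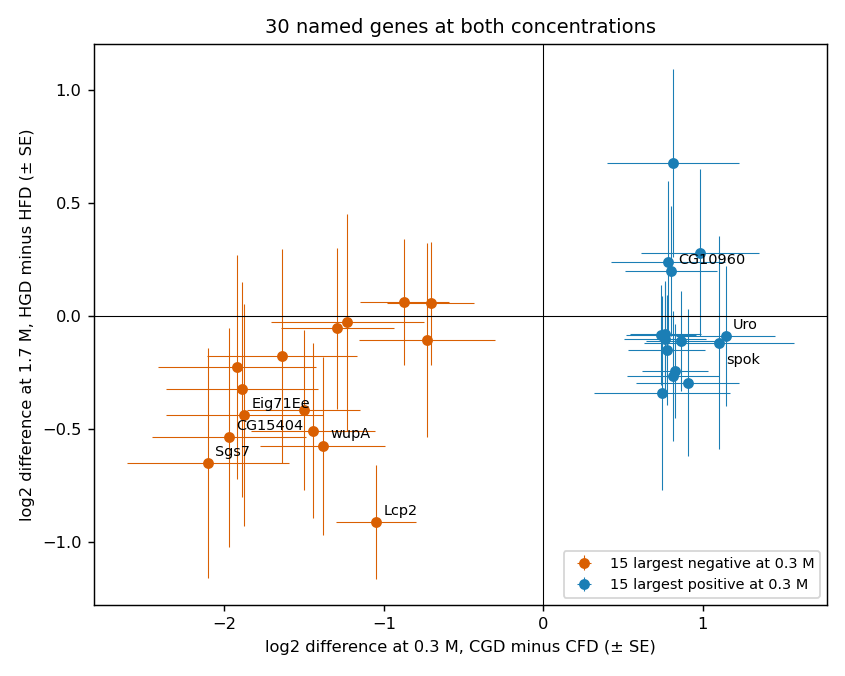
The log2 difference of glucose and fructose libraries at 1.7 M (vertical axis) against that at 0.3 M (horizontal axis), with standard errors. The 30 genes are the 15 largest differences in each direction by the naming rule, not all of them described in the text. Of the 15 genes to the left, 13 lie below 0 on the vertical axis, and of the 15 to the right 4 lie above 0; all differences at 1.7 M are between -0.91 and 0.67.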

How the data were processed

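Fat body RNA was depleted of ribosomal RNA, made into barcoded libraries and read on an Illumina HiSeq. In the study's methods, reads were aligned with TopHat and Bowtie to Ensembl_R72 and counted per gene with HTSeq. Tools listed in the submitters' processing notes were TopHat 1.3.2, Cufflinks 1.1.0 and Bowtie 0.12.7, with the build dm3. No source used here gives the strand setting, so reads of genes that overlap may be shared.

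The authors deposited a normalized signal for 9500 genes in 12 libraries, adjusted by quantiles gene by gene toward a common library size, separately for each sugar. The deposited totals still differed, at 10338851 in CGD replicate 3 against 7254246 and 7201797 in CGD replicates 1 and 2. Whole reads were recovered by inverting that scaling, with at least 99.99% of values returned within 0.0001, and served for depth and for limma-voom. Glucose values were divided by 1.117, the median over genes of the ratio of the CGD and CFD geometric means, since the sugars had no common scale. Genes with a mean of at least 1 over the control libraries were kept (1 removed). A linear model with 4 diet groups was fitted to log2(value + 1) in limma 3.58.1 (R 4.3.3), with trended empirical Bayes moderation, Benjamini-Hochberg adjustment and a threshold of 0.05. Fold changes of low genes are understated on this scale. p-values of the main fit rest on the spread between replicates within all 4 diets, not within CFD and CGD alone. The fit was tested on simulated data.

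A fixed rule listed genes for naming. It took the 15 largest differences in each direction with a mean of at least 50 and no overlap, and sugar entry enzymes and transporters with a mean of at least 50. It also took up to 3 genes per list by the size of t, InR, Dcr-2 and the 5 most abundant. The text does not name every gene so listed. Other list members, such as CG33282 and CG14606 with means below 50, and just outside genes are examples. These examples were chosen after their values were seen. Members and the 57 lists were chosen with earlier results of these data known, and 2 lists, Malpighian tubule and tanning, after values were seen. Positions are from BDGP6.54, not the authors' build, found for 9073 gene IDs. 4 symbols that had become dates were restored by ID. Alternatives were other scalings, pseudocounts of 0.1 and 5, a minimum mean of 10, fewer libraries, a replicate block and each library left out. Tables were handled in Python 3.11.15 with pandas 2.3.3, and figures were drawn with matplotlib 3.10.9.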

Additional observations from a re-analysis of the deposited data

How the results depend on the processing

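No gene was called between CGD and CFD under any of the 17 alternatives, all of them limma fits. The paper's own test, edgeR on read counts, did call genes between these diets, several of them described above. With no factor between the sugars, 746 genes had an unadjusted p under 0.05 (667 higher on CGD) and 1650 were without overlap (1567 higher), and the median of all genes moved by 0.16; differences of Tret1-1 and Hex-A then changed sign, to 0.05 and 0.03. With equal library totals the counts were 190 and 457. Leaving out 1 library gave 195 to 990 genes at an unadjusted p under 0.05 and 814 to 3080 without overlap, the latter more because fewer libraries must separate (814 only without HFD replicate 2, which is in neither diet). Of 81 genes checked, 72 kept their direction in every alternative. Leaving out 1 library gave ranges that cross 0 for ng3 (-2.50 to 0.03), He (-0.15 to 1.13), Tret1-1 (-0.28 to 0.04), sut1 (-0.23 to 0.49), Sodh-1 (-0.16 to 0.47), Pgi (-0.26 to 0.37), Lsp1gamma (-0.19 to 0.71) and Rfabg (-0.04 to 0.62); the cause was not tested.

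Replicate numbers are shared between the diets, and the labels do not say whether they pair the libraries. Same-numbered libraries did not deviate together (correlations -0.11, -0.04 and -0.21 across genes). With 3 libraries a diet this cannot exclude a shared preparation, so pairing is unknown. With a replicate block on the 6 control libraries, 0 genes were called and 269 had an unadjusted p under 0.05, against 376 in the 6 libraries without the block. Count tests, planned in case the table held raw counts, were not run. limma-voom and the fit without HFD replicate 2, the shallowest library at 3484910 reads, were chosen after seeing the data. Depth limits the rare genes, and 3 libraries a diet limit every interval.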
